A study of Homo sapiens with 6 samples.

Results

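NF-kB is a family of dimeric transcription factors, and the 10 genes described here encode 4 of its subunits, 3 of its cytoplasmic inhibitors and 3 regulators that NF-kB induces or that act on its dimers. They were chosen by symbol, with earlier results of these data known. All 10 were found among the 14788 genes of the expression table and passed the filter on low values. RNA was profiled in CAL51, a cell line established from a human triple-negative breast tumour, in 2 control libraries, 2 libraries labelled TREX1 KO-1 and 2 labelled TREX1 KO-2. Each knockout group carried its own guide RNA against TREX1, which encodes the main cytosolic DNA exonuclease, delivered by lentiviral CRISPR. The labels do not say whether the control carried a guide or Cas9. The depositors' note speaks of knockout clones, with their number per group not given in the sources used here. TREX1 itself was not analysed here, so the labels were not checked against the targeted gene.

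In unstimulated cells NF-kB dimers are held in the cytoplasm by IkB proteins. In the canonical route, IkB kinase marks IkB alpha for destruction and frees dimers of p65 (RELA) and p50, which is cut from the NFKB1 product. In the noncanonical route, the kinase NIK (MAP3K14) drives the processing of p100, the NFKB2 product, to p52, which pairs with RELB. Active dimers switch on genes that end the signal, among them NFKBIA and TNFAIP3, so the mRNA of these feedback genes is widely read as a trace of NF-kB activity. In breast cancer cells the pathway is known for driving chemokines and survival genes.

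The DNA near the starts of these genes is shown first, because NF-kB dimers act by binding kappa B sites in such DNA. Windows from 250 bases before to 50 bases after each annotated start came from RefSeq (GRCh38.p14), which had 13 windows for 8 of the 10 members. They were searched on both strands for the kappa B consensus, 10 bases made of 3 G, a purine, any 2 bases, 2 pyrimidines and 2 C. A match was present in 8 of the 13 windows and for 7 of the 8 genes, where 11.3% of all 35116 windows and 13.3% of all genes held one. The members were picked as NF-kB genes, so this count describes them and tests nothing. The stretches below run 5′ to 3′ on the gene's strand, with matches in capitals. A match on the other strand shows its complement. They show the inhibitor NFKBIA and the feedback gene BIRC3 outside annotated exons, the close pair of matches of TNFAIP3, the matches nearest to 2 starts of NFKB2, and those of NFKB1 and NFKBIB.
NFKBIA, chr14:35404750-35404999, minus strand: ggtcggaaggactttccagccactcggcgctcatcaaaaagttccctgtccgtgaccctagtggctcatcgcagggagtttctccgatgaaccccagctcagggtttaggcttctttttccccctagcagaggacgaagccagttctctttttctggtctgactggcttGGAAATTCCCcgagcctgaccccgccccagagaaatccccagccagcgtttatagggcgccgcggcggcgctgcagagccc
BIRC3, chr11:102317234-102317449, plus strand: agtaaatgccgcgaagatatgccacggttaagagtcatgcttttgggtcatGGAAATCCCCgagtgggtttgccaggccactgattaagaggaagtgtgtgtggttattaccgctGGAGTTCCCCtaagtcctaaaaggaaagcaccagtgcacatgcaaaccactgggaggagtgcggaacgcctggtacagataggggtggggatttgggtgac
TNFAIP3, chr6:137867188-137867217, plus strand: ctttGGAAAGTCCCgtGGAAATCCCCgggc
NFKB2, middle start, chr10:102394490-102394519, plus strand: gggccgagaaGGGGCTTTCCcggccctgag
NFKB2, downstream start, chr10:102395674-102395703, plus strand: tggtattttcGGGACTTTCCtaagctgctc
NFKB1, upstream start, chr4:102501300-102501329, plus strand: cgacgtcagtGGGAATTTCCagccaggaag
NFKBIB, downstream start, chr19:38899863-38899951, plus strand: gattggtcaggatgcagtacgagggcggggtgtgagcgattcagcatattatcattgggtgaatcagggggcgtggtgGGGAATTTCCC

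Distances here are from the RefSeq start, which can differ from the gene positions given below. The match of NFKBIA began 81 bases before its start, and those of TNFAIP3 began 67 and 55 bases before. The gene position of TNFAIP3 begins further upstream, at 137867188, so both of its matches lay inside the gene as placed below. The same held for the printed matches of NFKB2 and NFKBIB, whose gene positions begin at 102394110 and 38899700. All 30 printed bases of TNFAIP3 and all 30 at the middle start of NFKB2 were in annotated exons. So were 21 of the 30 bases of NFKB1 and 11 of the 30 at the downstream start of NFKB2. The NFKB1 gene position begins only at the last printed base, 102501329, and its window also held exons of AF213884.3. BCL3 had its match just past its start, at bases 3 to 12, and it is not printed. Nor is a match of NFKBIB past its downstream start, at bases 39 to 48. Neither window of RELA held a match. RELB and NFKBIE were not in the promoter table. A match shows only that these letters are present.

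Expression was given as log2 CPM, the log2 of a gene's reads scaled to the size of the library after adding a small constant. Libraries held between 13222933 reads (KO-2 replicate 1) and 25785055 (control replicate 2), and the 10 members rested on between 282 and 4037 reads each per library. KO-2 replicate 1 was the shallowest library and had 61 genes without reads, where the others had 5 to 16. A gene was called where its p, adjusted by Benjamini-Hochberg over 13765 genes in a limma fit to all 6 libraries, was below 0.05, and all adjusted p-values come from this kind of fit. The labels do not state that the replicates came from separate cultures, so the p-values reflect the spread of these libraries alone, and it may be technical. In bulk RNA fewer cells of a kind and less RNA per cell cannot be told apart. For the line's identity, EPCAM, KRT8, KRT18 and KRT19 lay at log2 CPM of 8.03 to 9.93 and ERBB2 at 7.35 to 7.64. VIM lay at 6.20 to 6.74 and CDH1 lower, at 4.84 to 5.41, while ESR1 and PGR were not analysed here. Of 7 identity genes tested, 5 rose and 1 fell with both guides, where 14.6% of all tested genes rose and 14.9% fell. The count was 3 higher and 0 lower with no mean-variance trend, and 0 fell with library medians set equal. The fall was also not called with any control or KO-1 library left out. Fewer rose without control replicate 2 or either KO-1 library. Apart from equal medians, these settings also called fewer of all tested genes. Of 14 markers of leukocytes, endothelium, fibroblasts and red cells, 7 were measured. Their summed level was 85.8 to 89.9 CPM in control and 79.4 to 83.9 CPM in the knockout libraries. PDGFRB was the highest of the 7, at log2 CPM of 5.19 to 5.53 on 563 to 1204 reads. PTPRC lay at 3.95 to 4.35, VWF at 2.03 to 2.24, LUM at 1.52 to 2.23 and PECAM1 at 1.18 to 2.19. CD14 lay at -2.17 to -0.01, on 2 to 18 reads, and CDH5, at 3.46 to 4.05, fell by 0.40 (adjusted p = 0.030). That call was lost with library medians set equal (0.051), under quantile normalization (0.052), with no mean-variance trend (0.053) and without control replicate 1 (0.33), control replicate 2 (0.094) or KO-1 replicate 2 (0.097). CD3E, CD68, LYZ, DCN, HBA1 and HBB were among those not analysed here. Their part in the results below was not tested.

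Of the 10 members, 5 rose with the mean of both guides, 0 fell and 5 did not pass the test. The background was 14.6% of all tested genes called higher and 14.9% called lower. The median log2 fold change was 0.24 over the members and -0.01 over all tested genes. As the members were chosen with earlier results known, these contrasts are not independent evidence of a direction. The genes that rose were NFKBIA, BIRC3, TNFAIP3, NFKB2 and RELA, so each of the 4 roles held at least 1 of them. In 7 of the 10 the 4 knockout libraries all lay above both control libraries, and this held for 22.3% of all tested genes. RELB, NFKBIB and NFKBIE were the members with overlap.

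**Figure D1:**
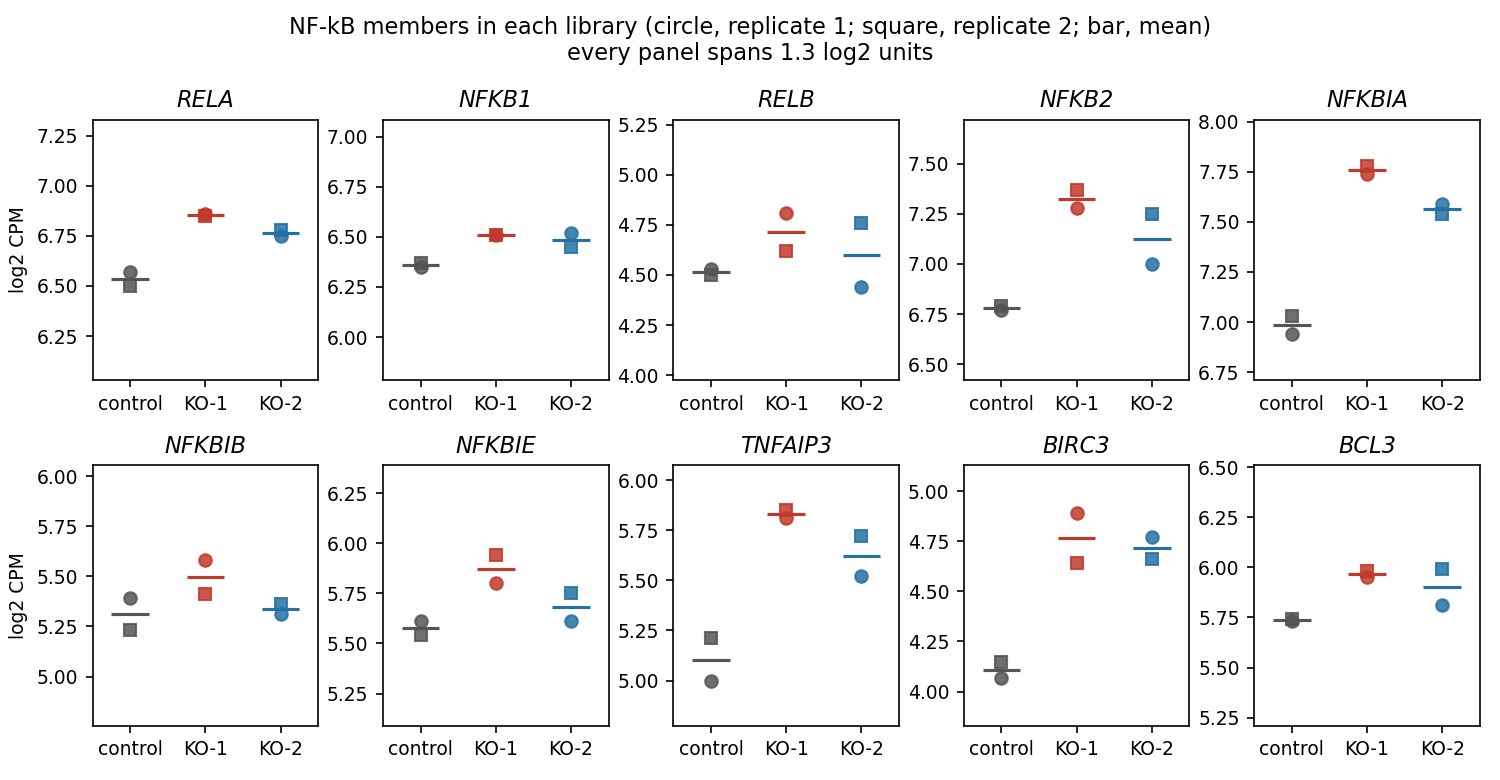
log2 CPM (vertical axis, each panel spanning 1.3 log2 units) of the 10 members in the control, KO-1 and KO-2 libraries, with replicate 1 as a circle, replicate 2 as a square and the mean of 2 as a bar. The control libraries are the lowest in 7 panels, and in RELB the circle of KO-2 lies at 4.44, under both control libraries.

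Among the canonical subunits, RELA rose by a small amount. RELA encodes p65, the subunit that carries the transactivation domain of the canonical dimer, and lies on chromosome 11 from 65653596 to 65663094 (hg38, GENCODE 29, minus strand). Its log2 CPM was 6.57 and 6.5 in control, 6.86 and 6.85 in KO-1, and 6.75 and 6.78 in KO-2. Both knockout groups lay above control without overlap, and KO-1 lay slightly above KO-2. The log2 fold change for both guides was 0.28 ± 0.05 (SE), or 1.21-fold (adjusted p = 0.0035). Its call was lost without control replicate 2 (log2 fold change 0.25, adjusted p = 0.085).

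NFKB1, the precursor of p50 (chromosome 4, 102501329 to 102617302, plus strand), did not pass the test. It lay at log2 CPM of 6.35 and 6.37 in control, 6.51 and 6.51 in KO-1, and 6.52 and 6.45 in KO-2. The knockout libraries were all above control, by less than those of RELA. The log2 fold change for both guides was 0.13 with a 95% interval of 0.01 to 0.26 (adjusted p = 0.10). It became a call with library medians set equal (0.18, adjusted p = 0.038) and without KO-2 replicate 2 (0.15, adjusted p = 0.018). A part of the exons of RELA overlaps those of AP001362.2 on the opposite strand. The strand setting of the counting was not given in the sources used here, so reads in that part cannot be told apart.

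Of the noncanonical subunits, 1 passed the test. NFKB2, which encodes the p100 precursor of p52 and lies on chromosome 10 from 102394110 to 102402529 (plus strand), rose. Its log2 CPM was 6.77 and 6.79 in control, 7.28 and 7.37 in KO-1, and 7.0 and 7.25 in KO-2. All knockout libraries were above control, and the KO-2 replicates differed more from each other than those of the other groups. For both guides the log2 fold change was 0.44 ± 0.07 (SE), or 1.36-fold (adjusted p = 0.0011).

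RELB, the partner of p52 (chromosome 19, 45001430 to 45038198, plus strand), had the lowest counts of the subunits, at 282 to 588 reads. Library values were log2 CPM of 4.53 and 4.50 in control, 4.81 and 4.62 in KO-1, and 4.44 and 4.76 in KO-2. KO-1 lay above control, while KO-2 had 1 library below and 1 above. The log2 fold change for both guides was 0.15 with an interval of -0.09 to 0.38 (adjusted p = 0.35). Without KO-2 replicate 1, the library at 4.44, it was 0.22 and a call (adjusted p = 0.045).

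Differences between subunits inside a library do not depend on how libraries were scaled. NFKB2 exceeded NFKB1 by 0.42 log2 CPM in each control library, by 0.77 and 0.86 in KO-1, and by 0.48 and 0.80 in KO-2. All 4 knockout libraries were above both controls, and the mean difference was 0.31 higher. RELB minus RELA was -2.04 and -2.0 in control, -2.05 and -2.23 in KO-1, and -2.31 and -2.02 in KO-2. It was lower in each knockout library than in control replicate 2, but KO-2 replicate 2 lay above control replicate 1. The mean shift was -0.13. In an exact two-sided permutation test of 2 control against 4 knockout libraries, p was 0.067 for the first pair and 0.20 for the second. The smallest p this design can give is 0.067, so no pair could pass 0.05. Adjusted by Benjamini-Hochberg over the 3 pairs compared, these permutation p-values were 0.10 and 0.20.

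**Figure D2:**
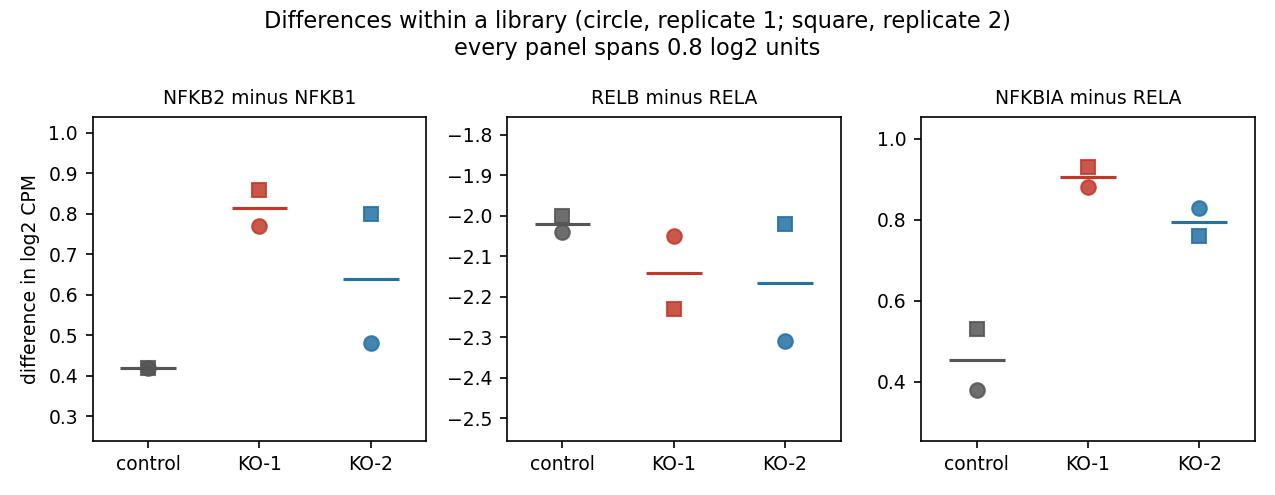
Difference in log2 CPM between 2 genes of the same library (vertical axis, each panel spanning 0.8 log2 units) for NFKB2 minus NFKB1, RELB minus RELA and NFKBIA minus RELA in control, KO-1 and KO-2, with circles for replicate 1, squares for replicate 2 and bars for means. The outer panels have all knockout libraries above control, and in the left one KO-2 replicate 1 lies near control, at 0.48 against 0.42.

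Of the cytoplasmic inhibitors, NFKBIA rose most clearly. It encodes IkB alpha, the inhibitor that NF-kB itself induces, and lies on chromosome 14 from 35401511 to 35404749 (minus strand). Its log2 CPM was 6.94 and 7.03 in control, 7.74 and 7.78 in KO-1, and 7.59 and 7.54 in KO-2. The 3 groups did not overlap, with KO-1 highest and control lowest. For both guides the log2 fold change was 0.68 ± 0.05 (SE), or 1.60-fold (adjusted p = 1.5e-05), and it remained a call under every alternative run. Set against RELA, which its product binds, NFKBIA was higher by 0.38 and 0.53 log2 CPM in control, 0.88 and 0.93 in KO-1, and 0.83 and 0.76 in KO-2. That mean difference was 0.40 higher in the knockout libraries (exact permutation p = 0.067, the smallest possible here, and 0.10 adjusted over 3 pairs).

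NFKBIE, which encodes IkB epsilon (chromosome 6, 44258166 to 44265788, minus strand), lay at log2 CPM of 5.61 and 5.54 in control, 5.80 and 5.94 in KO-1, and 5.61 and 5.75 in KO-2. KO-1 was above control, and KO-2 replicate 1 was level with control replicate 1. The log2 fold change for both guides was 0.20 ± 0.08 (SE, adjusted p = 0.071), which did not pass. With library medians set equal (0.24, adjusted p = 0.029), under quantile normalization (0.22, adjusted p = 0.047) and in a voom fit on recovered reads (0.21, adjusted p = 0.047) it was a call, as it was without either KO-2 library (adjusted p = 0.0069 and 0.045).

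NFKBIB, which encodes IkB beta (chromosome 19, 38899700 to 38908893, plus strand), had the smallest change. The libraries gave log2 CPM of 5.39 and 5.23 in control, 5.58 and 5.41 in KO-1, and 5.31 and 5.36 in KO-2, so KO-2 lay within the range of control. The log2 fold change for both guides was 0.10 with an interval of -0.08 to 0.28 (adjusted p = 0.38). Exons of SIRT2 overlap it on the opposite strand. SIRT2 lay at log2 CPM of 4.94 to 5.37, with a log2 fold change of -0.24 (adjusted p = 0.069). Without a known strand setting, reads in the overlapping part cannot be told apart.

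The induced feedback genes TNFAIP3 and BIRC3 rose by about as much as NFKBIA. TNFAIP3 encodes A20, a ubiquitin-editing enzyme that shuts off signalling to IkB kinase, and lies on chromosome 6 from 137867188 to 137883312 (plus strand). Its log2 CPM was 5.00 and 5.21 in control, 5.81 and 5.85 in KO-1, and 5.52 and 5.72 in KO-2. The 3 groups did not overlap. For both guides the log2 fold change was 0.62 ± 0.09 (SE), or 1.53-fold (adjusted p = 0.00055). Exons of AL357060.1 overlap TNFAIP3 on the opposite strand, and reads in the overlapping part likewise cannot be told apart.

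BIRC3 encodes cIAP2, a ubiquitin ligase that acts in TNF receptor signalling and restrains NIK (chromosome 11, 102317450 to 102339403, plus strand). It lay at log2 CPM of 4.07 and 4.15 in control, 4.89 and 4.64 in KO-1, and 4.77 and 4.66 in KO-2. Both knockout groups were above control and overlapped each other. For both guides the log2 fold change was 0.63 ± 0.10 (SE), or 1.55-fold (adjusted p = 0.0012).

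BCL3, a nuclear IkB protein that binds p50 and p52 dimers (chromosome 19, 44747705 to 44760044, plus strand), did not pass. BCL3 stood at log2 CPM of 5.73 and 5.74 in control, 5.95 and 5.98 in KO-1, and 5.81 and 5.99 in KO-2. All knockout libraries were above control. The log2 fold change for both guides was 0.20 with an interval of 0.04 to 0.35 (adjusted p = 0.061). It was a call with library medians set equal (0.24, adjusted p = 0.025), under quantile normalization (0.21, adjusted p = 0.048), in the voom fit (0.20, adjusted p = 0.039) and without either KO-2 library (adjusted p = 0.0021 and 0.041).

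The count of members that rose with both guides varied with the fit. It was 8 with library medians set equal and 8 without KO-2 replicate 1 or without KO-2 replicate 2, 7 under quantile normalization and in the voom fit, and 4 without control replicate 2. No member was called lower under any of these. Calls over all tested genes were also more without either KO-2 library and fewer without control replicate 2.

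With KO-1 alone, 6 of the 10 members rose and 0 fell, at a background of 14.6% called higher and 15.1% called lower. These were the 5 above and NFKBIE, whose log2 fold change was 0.29 (adjusted p = 0.027). NFKBIA rose by 0.77, TNFAIP3 by 0.72, BIRC3 by 0.66, NFKB2 by 0.54 and RELA by 0.32. All 10 members had both KO-1 libraries above both control libraries, which held for 35.5% of tested genes. The call of NFKBIE was lost without either control library (adjusted p = 0.10 and 0.20), without either KO-1 library (0.063 and 0.22) and with no mean-variance trend (0.088). That of RELA was lost without control replicate 2 (0.059). BCL3 stood at 0.23 (adjusted p = 0.060) and became a call without either KO-2 library (0.0048 and 0.0052).

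With KO-2 alone, 5 of the 10 rose and 0 fell, at a background of 8.73% called higher and 8.19% called lower. BIRC3 rose by 0.61 (adjusted p = 0.0070), NFKBIA by 0.58 (0.00026), TNFAIP3 by 0.51 (0.0074), NFKB2 by 0.34 (0.016) and RELA by 0.24 (0.028). In 7 of 10 both KO-2 libraries were above both control libraries, against 28% of tested genes. Only the call of NFKBIA held in every fit with a library left out. Without control replicate 1 the other 4 lost their call, without control replicate 2 RELA, NFKB2 and BIRC3 did, without KO-1 replicate 2 RELA and NFKB2 did, and without KO-1 replicate 1 RELA did. The 2 knockout groups were compared with the same control libraries, so these lists are not independent. In the authors' deposited table the false discovery rate was below 0.05 for 6 members with KO-1 and 5 with KO-2, each of which was also called here.

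**Figure D3:**
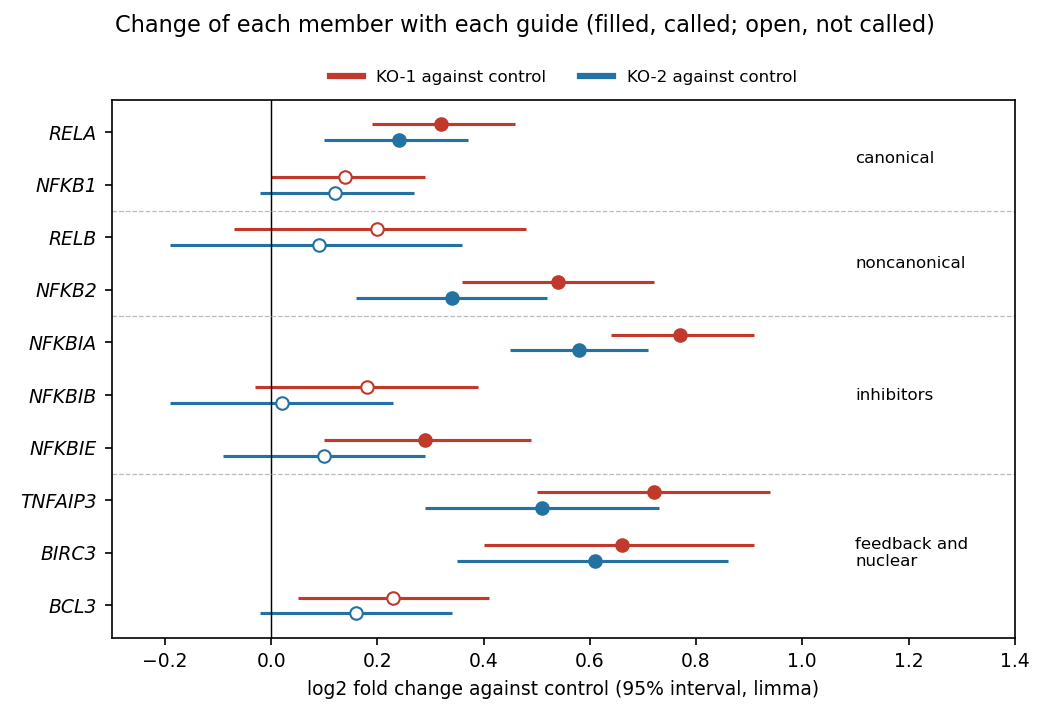
log2 fold change against control (horizontal axis) of the 10 members with KO-1 (red) and KO-2 (blue), with 95% intervals from limma, grouped by role, filled where called and open where not. The KO-1 value is to the right of the KO-2 value for each member, from 0.77 against 0.58 in NFKBIA to 0.14 against 0.12 in NFKB1.

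The guides were then compared directly. In KO-2 against KO-1, limma called 0 of the 10 members, at a background of 1.14% of tested genes called either way. NFKBIA and NFKB2 were the 2 with an unadjusted p under 0.05, and both a voom fit and the authors' deposited table called 0. All 10 log2 differences were below 0, as were 50.3% of those of all tested genes. They ran from -0.21 for TNFAIP3 (95% interval -0.43 to 0.01) to -0.02 for NFKB1 (-0.17 to 0.12). NFKBIA differed by -0.20 (-0.33 to -0.07, adjusted p = 0.14) and NFKB2 by -0.20 (-0.38 to -0.02, adjusted p = 0.23). In 6 members both KO-2 libraries were below both KO-1 libraries, which was so for 21.9% of tested genes. In the reported fit 0.806% of tested genes were called lower, and 157 of 13765 genes were called either way. Without KO-2 replicate 2, 4 members were called lower (NFKB2, NFKBIA, NFKBIE and TNFAIP3), in a fit that called 3170 genes either way. Without KO-2 replicate 1, NFKBIA was called lower (-0.22, adjusted p = 0.026), in a fit that called 737. The counts of members and of all genes thus both changed with either KO-2 library left out.

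Levels were compared between genes per kilobase of exon, as log2 CPM minus the log2 of the length in kilobases of all annotated exons (GENCODE 29). In control, NFKBIA was highest at 5.74 ± 0.06 (SD, n = 2) and NFKB2 next at 4.62 ± 0.02. NFKBIE (4.21 ± 0.05), NFKBIB (4.09 ± 0.11), RELA (4.08 ± 0.05) and BCL3 (4.04 ± 0.00) followed. Neighbours among these 4 lay within or close to their spread. NFKB1 stood at 3.72 ± 0.01, and RELB (2.91 ± 0.02) and TNFAIP3 (2.77 ± 0.15) were lower and did not differ beyond the spread of TNFAIP3. BIRC3 was lowest at 1.20 ± 0.06. In KO-1 TNFAIP3 reached 3.49 ± 0.02 and passed RELB at 3.11 ± 0.13, and in KO-2 their levels were 3.28 ± 0.14 and 3.0 ± 0.22. NFKBIA, NFKB2 and BIRC3 kept ranks 1, 2 and 10 in each group. With the authors' gene models not given in the sources used here, other exon lengths would shift these levels by the same amount in every library.

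**Figure D4:**
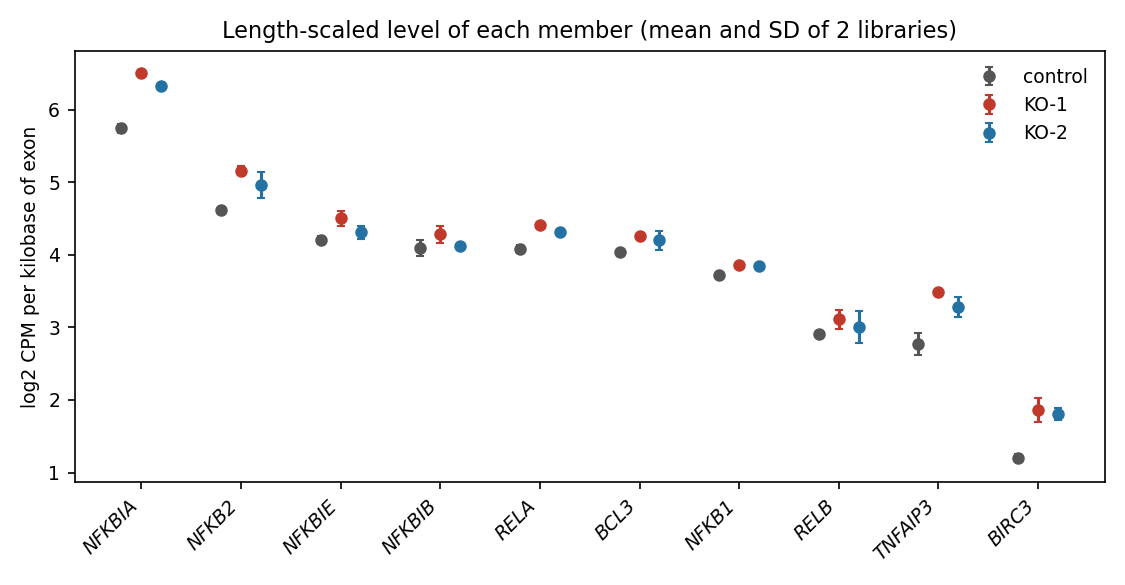
Length-scaled level (vertical axis, log2 CPM per kilobase of exon) of the 10 members ordered by their control level, as mean and SD of 2 libraries for control, KO-1 and KO-2. NFKBIA stands highest at 5.74 in control and 6.51 in KO-1, and BIRC3 lowest at 1.20 and 1.86.

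Genes with the most similar profile over the 6 libraries were ranked by Pearson r of log2 CPM among 10135 tested genes with a mean of at least 3, leaving out clone-based names. For NFKBIA they were LSG1 and CTSE (r = 0.999 each) and CPA4 and F2RL2 (0.998 each). For NFKB2 they were PROCR (0.997), RBM7 (0.996), TNFSF9 and NABP1 (0.994 each). Among the members, NFKBIA was closest to RELA (0.970) and TNFAIP3 (0.967) and NFKB2 to BCL3 (0.977) and TNFAIP3 (0.974). The points are 3 groups of 2 libraries that share their scaling, so these values describe the libraries and carry no test.

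The remaining members of the Rel and IkB family were measured too. Of 5 other genes, 2 rose with both guides and 0 fell, at a background of 14.6% called higher and 14.9% called lower. Their median log2 fold change was 0.33. REL, which encodes the transactivating subunit c-Rel, lay at log2 CPM of 4.27 and 4.16 in control, 4.90 and 4.78 in KO-1, and 4.49 and 4.56 in KO-2. It rose by 0.47 ± 0.09 (SE, adjusted p = 0.0039), with no overlap between the groups, and lost its call without control replicate 2 (adjusted p = 0.081). NFKBIZ, a nuclear IkB protein that NF-kB induces, rose by 0.40 ± 0.08 (SE, adjusted p = 0.0037), a call lost without control replicate 1 (adjusted p = 0.10). NFKBID, a nuclear relative of BCL3, stood at 0.33 (adjusted p = 0.072), and became a call in the voom fit (0.049), with library medians set equal (0.042), under quantile normalization (0.041) and without KO-2 replicate 1 (0.015).

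The kinases that pass the signal on did not pass the test with both guides. Of 8 genes of the IKK complex and related kinases, limma called 0, where it called 14.6% of all tested genes higher and 14.9% lower. Of these, 2 had an unadjusted p under 0.05, voom called 1, and the fit called 2 with library medians set equal and 1 under quantile normalization. CHUK and IKBKB, the catalytic subunits, had log2 fold changes of 0.04 (95% interval -0.11 to 0.20) and 0.02 (-0.19 to 0.24). IKBKG, the scaffold subunit NEMO, stood at 0.39 (0.06 to 0.72, adjusted p = 0.075) on 90 to 173 reads, and part of its sequence has a near-identical pseudogene copy that could share reads. MAP3K14 lay at 5.93 and 5.97 in control, 6.32 and 6.29 in KO-1, and 5.78 and 6.16 in KO-2. It rose with KO-1 by 0.35 (adjusted p = 0.029) and stood at 0.02 in KO-2 (adjusted p = 0.93), while the difference between the guides was -0.34 (adjusted p = 0.16). MAP3K8, the kinase TPL2 that p105 binds, rose with KO-1 by 0.32 (adjusted p = 0.036). Both KO-1 calls were lost without any one of the control or KO-1 libraries (adjusted p = 0.12 to 0.17 for MAP3K14 and 0.11 to 0.22 for MAP3K8) and with no mean-variance trend (0.14 and 0.13), and without KO-2 replicate 2 both genes were lower in KO-2 than in KO-1 (5.4e-05 and 0.0047). Without KO-2 replicate 1, in contrast, both were called higher in KO-2 than in control, MAP3K14 at 0.21 (adjusted p = 0.033) and MAP3K8 at 0.27 (0.019). Leaving out either KO-2 library brought calls among the 8 kinases with both guides, and more calls over all tested genes too.

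Of 18 receptors that feed NF-kB, TLR4 and CD40 were not tested. Of the other 16, 5 rose and 0 fell, against 14.6% and 14.9% of all tested genes, and their median log2 fold change was 0.19. TNFRSF10B, a TRAIL receptor that is also a p53 target, rose by 0.86, IL1RAP, the shared chain of interleukin-1 receptors, by 0.71, TNFRSF12A, the TWEAK receptor, by 0.71, and LTBR, the lymphotoxin receptor that signals to NIK, by 0.52. LTBR lay at 7.22 and 7.18 in control, 7.68 and 7.77 in KO-1, and 7.65 and 7.77 in KO-2, so the guides overlapped. Leaving out either KO-2 library raised the receptor count in both directions, and raised the calls over all tested genes too.

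Of 27 adaptors and ubiquitin ligases, 7 rose and 8 fell, where 14.6% of all tested genes rose and 14.9% fell. Their median was 0.09. TAB2, which links ubiquitin chains to the kinase TAK1, rose by 0.40 and the paracaspase MALT1 by 0.33. SHARPIN, a subunit of the linear ubiquitin ligase, stood at -0.61 and the kinase IRAK1 at -0.29, and both fell. SHARPIN had log2 CPM of 5.48 and 5.52 in control, 4.96 and 4.79 in KO-1, and 4.91 and 4.90 in KO-2. The counts were 3 higher and 5 lower with no mean-variance trend. They also fell with any control or KO-1 library left out. Under each of these settings fewer of all tested genes were called.

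Of 18 other negative regulators tested, 6 rose and 1 fell, where 14.6% of all tested genes rose and 14.9% fell. Their median was 0.00, and TNIP3 was not tested. TNIP1, which binds A20, lay at 6.67 and 6.60 in control, 7.24 and 7.30 in KO-1, and 7.29 and 7.22 in KO-2. It rose by 0.63 ± 0.05 (SE, adjusted p = 2.9e-05), with the guides level with each other. CYLD, a deubiquitinase of the pathway, rose by 0.65 (adjusted p = 0.00014), ZC3H12A, an RNase that degrades inflammatory mRNAs, by 0.51 (0.0090) and TAX1BP1, an adaptor of A20, by 0.25 (0.011). ZC3H12A lost its call without control replicate 1 (0.13) and with no mean-variance trend (0.053), and TAX1BP1 without any one of the control or KO-1 libraries (0.052 to 0.15) and with no mean-variance trend (0.093). The number that rose was 2 with no mean-variance trend. It was also smaller without control replicate 1, control replicate 2 or KO-1 replicate 2. Fewer of all tested genes were called under each of these settings. NLRX1 was the gene that fell, at -0.32 (adjusted p = 0.021), and 0 fell under these 4 settings.

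Of 7 genes of the route by which DNA damage reaches IkB kinase, 2 rose and 2 fell, and the median was 0.06. Over all tested genes 14.6% rose and 14.9% fell. PIDD1, a p53-induced death domain protein that forms a complex with NEMO, lay at 4.97 and 4.93 in control, 6.34 and 6.45 in KO-1, and 5.36 and 6.06 in KO-2. It rose by 1.1 ± 0.15 (SE, adjusted p = 0.00043). ATM, the damage kinase, stood at -0.34 (adjusted p = 0.015) and PIAS4, a SUMO ligase for NEMO, at -0.29 (0.014), and both fell. ATM lost its call without control replicate 2 (0.25), KO-1 replicate 2 (0.073) or the mean-variance trend (0.11), and PIAS4 without control replicates 1 and 2 (0.15 and 0.13), KO-1 replicate 2 (0.062) or the trend (0.051). TAB2, given above, was the other gene that rose.

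Among coactivators and enzymes that modify p65, 2 of 12 rose and 2 fell, close to the 14.6% and 14.9% of all tested genes, and the median was 0.04. The kinase gene RPS6KA5 rose by 0.74 (adjusted p = 0.0019), while HDAC3, a p65 deacetylase, stood at -0.64 and fell (adjusted p = 0.00010). The number that fell was 1 without either control library. The counts were 5 higher and 3 lower without KO-2 replicate 1, 4 and 4 without KO-2 replicate 2, and 4 and 2 with library medians set equal.

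Other NF-kB target genes were set beside the members. Of 32 listed, 24 were tested (CXCL10, CCL5, IL1B, VCAM1, SOD2, BCL2A1, MMP9 and TNFRSF9 were not). With both guides 19 rose and 0 fell, where 14.6% of all tested genes rose and 14.9% fell. The median was 0.70, and CXCL1, at 1.80, had the largest change. The count was 21 with library medians set equal and 18 with no mean-variance trend. It fell without either control library and rose without either KO-2 library, as did the calls over all tested genes. With KO-1 alone 20 rose and with KO-2 alone 14, where 14.6% and 8.73% of all tested genes were called higher. This list was drawn up with earlier results of these data known, so neither its count nor its median is independent evidence. The place of the members against that median is a description only. NFKBIA, BIRC3 and TNFAIP3, at 0.62 to 0.68, lay close to its median. The subunits RELA, NFKB1, RELB and NFKB2, at 0.13 to 0.44, and BCL3, NFKBIE and NFKBIB, at 0.10 to 0.20, lay further below it.

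**Figure D5:**
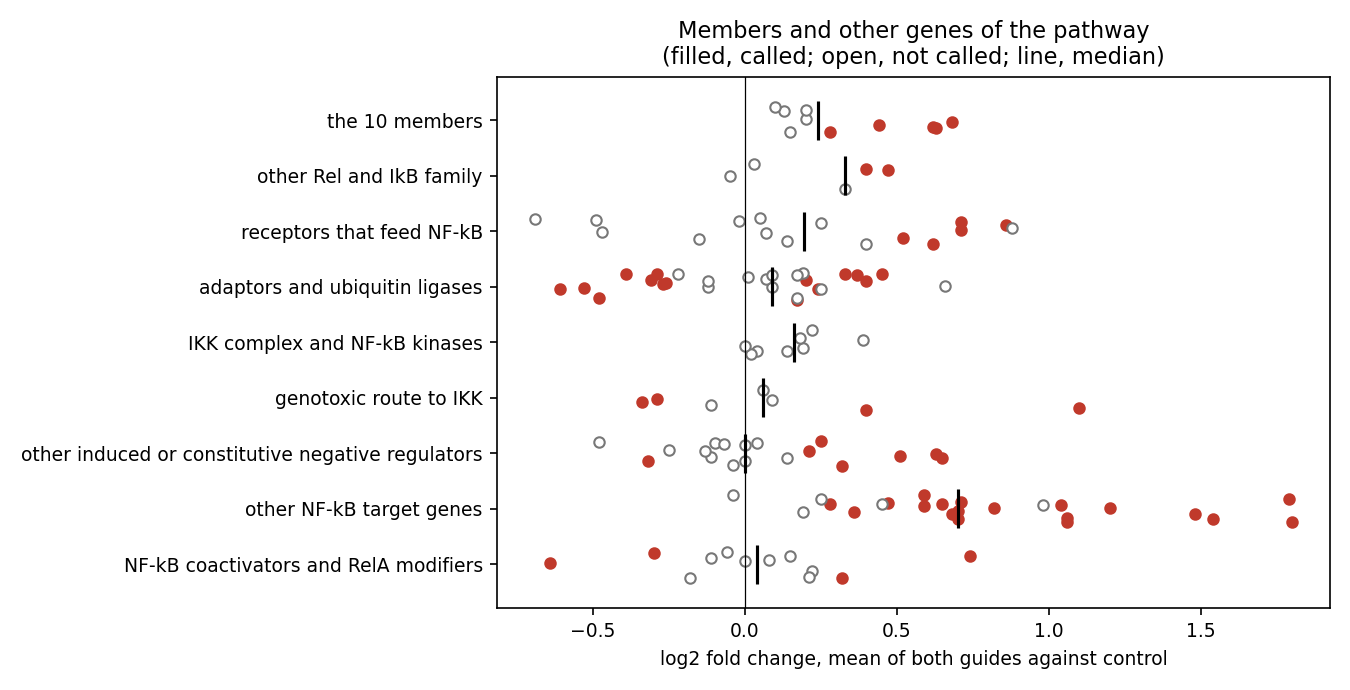
log2 fold change for the mean of both guides against control (horizontal axis) of the 10 members and of 8 lists of other pathway genes, filled where called, open where not, with the median as a line and points spread vertically for legibility. Target genes are centred at 0.70 and the members at 0.24, while the IKK list has no called gene.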

How the data were processed

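The members and gene lists were chosen with earlier results of these data known. The authors deposited log2 CPM per gene and library, and a second table with log2 fold changes, along with the p-value and false discovery rate of each. Per the submitters' processing notes the tools were fastp, STAR 2.7, featureCounts (Subread 2.0) and edgeR, with hg38, and with the annotation, strand setting and gene filter not given in the sources used here. Subtracting the constant of 0.102 CPM behind the shared minimum of -3.29 gave whole reads for 100% of values (tolerance 0.01 reads). At these depths 3 reads are 0.115 to 0.230 CPM.

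The deposited values were used without another pseudocount or scaling. Genes with log2 CPM of at least 0 in at least 2 libraries were kept (13765, with 1023 removed). limma 3.58.1 (R 4.3.3) was fitted to all 6 libraries with a mean-variance trend, 3 residual and 8.02 prior degrees of freedom, and tested on simulated data. All 10 members are named; from each list up to 4 genes with the smallest p for both guides are named, plus those called between the guides. Members of a list named beyond these (CHUK, IKBKB, NLRX1) were chosen after their values were seen. The voom fit on recovered reads was added after seeing the data, in place of 2 planned count-model fits. The mouse and single-cell data were not analysed here. Values of some list genes that the rule names are not reported here.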

Additional observations from a re-analysis of the deposited data

Results flagged for a closer look

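In 4 of 24 tested NF-kB target genes outside the 10 members the effect differed between the guides by the limma test of KO-2 against KO-1, all lower in KO-2, where 0.806% of all tested genes were called lower. CCL20, a chemokine for lymphocytes and dendritic cells, was lower in KO-2 by a log2 difference of -0.73 (adjusted p = 0.0052), on log2 CPM of 6.99 and 6.97 in KO-1 and 6.19 and 6.31 in KO-2. ICAM1, an adhesion molecule, differed by -0.68 (adjusted p = 0.0066), and in KO-2 its change against control was 0.25 (adjusted p = 0.059), which became a call with library medians set equal (0.032), under quantile normalization (0.041), in the voom fit (0.049) and without KO-2 replicate 1 (0.0074). PLAU, the urokinase gene, differed by -0.75 (adjusted p = 0.0066) and CXCL8, a neutrophil chemokine, by -0.65 (adjusted p = 0.033). All 4 calls were lost without KO-1 replicate 1 (adjusted p = 0.25 to 0.31), without KO-1 replicate 2 (0.27 to 0.42) and with no mean-variance trend (0.21 each), and that of CXCL8 also without control replicate 1 (0.071) or 2 (0.077). None of the 10 members differed between the guides in this test, with 2 at an unadjusted p below 0.05 in limma and 0 called by voom.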

How the results depend on the processing

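The number of members called higher with both guides was 5 in the reported fit, 8 with library medians set equal, and 4 to 8 with 1 library left out. With KO-1 it was 6, and 4 to 8 with a library left out. With KO-2 it was 5, 1 with no mean-variance trend, and 1 to 6 with a library left out. Between the guides it was 0, and 0 to 4 (lower in KO-2) with a library left out. No member reversed its direction where it was called. With the replicate block, the replicate number as a term, the members called were 5 for both guides, 6 for KO-1, 5 for KO-2 and 0 between the guides, so it changed no call. The labels do not say whether samples of the same number share an origin. Same-numbered deviations correlated across genes at -0.0534, 0.0440 and -0.0363 between groups. These values show little shared by number but cannot show how the samples were made. The 3 differences within a library kept their sign in every alternative, NFKB2 minus NFKB1 at 0.22 to 0.40, RELB minus RELA at -0.18 to -0.08 and NFKBIA minus RELA at 0.32 to 0.48.

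Over all genes, calls for both guides went from 4068 to 1286 and 1511 without control replicates 1 and 2, 2568 without KO-1 replicate 1, 2565 without KO-1 replicate 2, 5869 and 6075 without a KO-2 library, and 2201 with no trend. For KO-1 they went from 4089 to 1694 to 1903 with a control or KO-1 library left out, 6255 without either KO-2 library, 6259 with only the groups compared and 2345 with no trend. For KO-2 they went from 2329 to 362 to 4565 with a library left out, 1371 with only the groups compared and 162 with no trend. Between the guides they went from 157 to 0 to 3170, 48 and 1. A group left with 1 library was assumed to vary like the others. The planned edgeR fits were not run, and the voom fit on recovered reads took their place. With library medians set equal the median fold change of all genes for both guides moved from -0.010 to 0.036.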
